A study of Homo sapiens with 20 samples.

Results

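The genes examined here form the switch that carries a cell from G1 into S phase: the D cyclins CCND1, CCND2 and CCND3, their kinases CDK4 and CDK6, the pocket proteins RB1, RBL1 and RBL2, the F-box protein SKP2 and the phosphatase CDC25A. Members were all probe sets whose platform annotation named only 1 of these 10 genes, which gave 18 of the 22215 probe sets that were not controls, and 10 of the 11963 genes so named. They were measured in 10 established human lines of T-cell acute lymphoblastic leukemia, a cancer of immature T cells, all with activating NOTCH1 mutations. The lines were KOPTK1, ALL-SIL, PF382, HPB-ALL, RPMI8402, DND41, P12-ICHIKAWA, CUTLL1, MOLT3 and CCRF-CEM. Each line gave 1 Affymetrix array after the vehicle DMSO and 1 array after 100 nM CompE, both at 72 h. CompE inhibits gamma-secretase, the protease that releases the active intracellular part of NOTCH. The dose stands in the treatment label of 4 CompE arrays, and for the other 6 it was taken from the description of the series. Another growth medium is named for DMSO than for CompE in P12-ICHIKAWA, CCRF-CEM and MOLT3. The name given there is also that of a cell line of the study, so whether the medium differed or the label is a slip is not known. All groups are cultures of established lines that carry the NOTCH1 mutation, so no group without it was included.

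D cyclins bind CDK4 or CDK6, and the active kinase phosphorylates RB1 and its relatives, which then release E2F transcription factors and allow S-phase genes to be transcribed. SKP2 marks the CDK inhibitor p27 for degradation, and CDC25A removes inhibitory phosphates from CDK2. In developing thymocytes CCND3 is needed for the burst of division that follows pre-T-cell receptor signalling, and SKP2 and D cyclins have been described as downstream of NOTCH in T cells.

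Under CompE, CDK4, CDK6, SKP2, CDC25A and RB1 each had at least 1 probe set that was called lower, and no member was called higher. CDK6 was 1.72-fold lower and CDK4 1.34-fold lower on the log2(signal + 16) scale, each in all 10 lines. CCND3, the D cyclin with signals of 1278 or more in every array, was higher in 8 of 10 lines but did not pass the test. Of the 18 probe sets, 14 were bright enough to be tested (mean above the 40th percentile, a signal of about 32.5), and 6 of the 14 (42.9%) were called lower and 0 higher. Over all 13329 probe sets tested, 4.48% were called, 2.39% lower and 2.09% higher (limma with cell line as a block, Benjamini-Hochberg adjusted p under 0.05). Lower in all 10 lines were 4 of the 14 members (CDK4, CDK6, RB1 by 211540_s_at and SKP2 by 210567_s_at) and 1.44% of all tested probe sets, and higher in all 10 were 0 members and 1.46%. The 14 members had a median change of -0.25 against 0.027 over all tested probe sets. The members were chosen with earlier results of these data known, so these shares and medians are descriptions. The 6 calls belong to 5 genes, and probe sets of 1 gene measure the same RNA, so they are not independent. In cultures measured in bulk, fewer cells with a transcript and less of it per cell cannot be told apart.

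**Figure D1:**
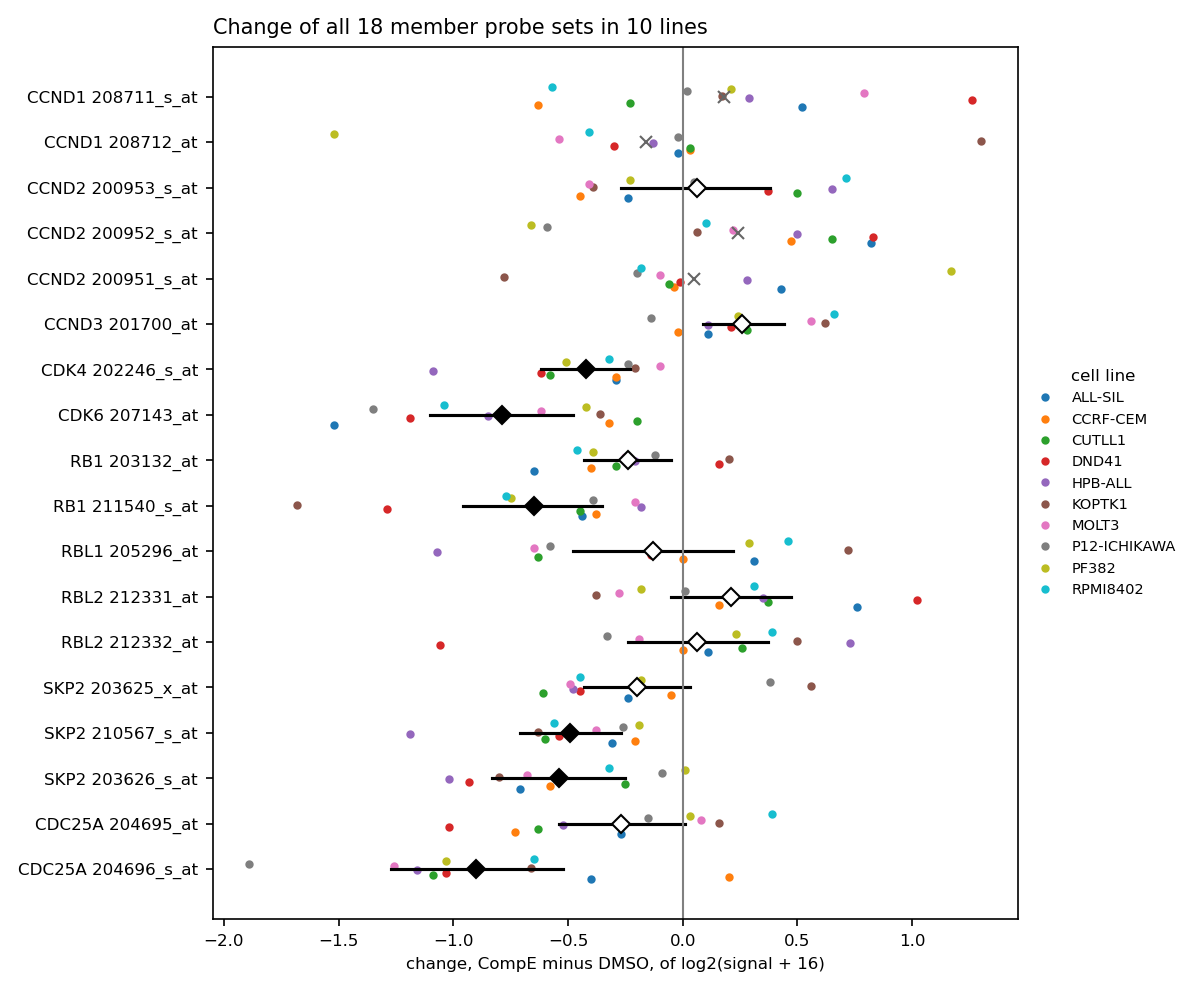
Change under CompE, on the log2(signal + 16) scale, of the 18 member probe sets. Coloured dots are the 10 lines, diamonds the mean change with its 95% interval from limma, filled where the adjusted p was under 0.05, and crosses the mean of the 4 probe sets that were too dim to be tested. The filled diamonds are CDK4, CDK6, and 1 or 2 of the probe sets of RB1, SKP2 and CDC25A, all left of 0.

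Array quality moved with the treatment and the lines. Every array had been scaled to the same trimmed mean of 250, and median signals ran from 54.8 to 74.9. The ratio of 3' to 5' ACTB signal, a measure of RNA quality, averaged 1.47 ± 0.687 for DMSO against 2.28 ± 2.64 for CompE (SD, n = 10). In 9 lines the CompE array had the higher ratio, and KOPTK1 stood apart at 3.32 and 9.76. The known NOTCH targets MYC and HES1 fell, with changes of -1.5 ± 0.285 (SE, limma adjusted p = 0.0156) and -1.71 ± 0.307 (adjusted p = 0.0116). All 10 T-lineage markers on the array passed the brightness filter, and their summed signal was 9468 to 22151 in DMSO and 9499 to 23708 in CompE. The lowest single signals of CD2 (2.61), CD5 (11.2) and CD28 (15.4) lay under the filter level of 32.5. Those of the other T-lineage markers lay above it, with CD3D at 4461 or more. None of the 5 myeloid and 3 erythroid markers passed the filter. Of 5 B-cell markers 3 passed, CD79A with a median of 36.0 and a maximum of 2469, as did 1 of 5 epithelial and 3 of 6 fibroblast markers. The part of other cell types in the results was not tested. The number of calls over all probe sets, 597, depended on single lines: it rose to 1465 without KOPTK1 and dropped to 352 without ALL-SIL, 338 without PF382, 319 without MOLT3, 281 without CUTLL1, 164 without DND41, 134 without RPMI8402 and 96 without HPB-ALL. The 6 member calls became 2 without DND41, 2 without HPB-ALL and 2 without RPMI8402, and lay between 5 and 7 when any other line was left out. With every array centred on its median, 6 members were again called lower, while the split over all probe sets went from 318 lower and 279 higher to 469 lower and 125 higher.

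The D cyclins differed in how many of their probe sets passed the brightness filter. CCND1, the D cyclin of epithelial and mesenchymal cells, had 2 probe sets under the filter: 208711_s_at ran from 1.28 to 31.6 in DMSO (median 13.5) and from 1.49 to 39.1 in CompE (median 14.0). The other, 208712_at, ran from 2.65 to 57.1 (median 12.5) and from 3.06 to 36.0 (median 9.04). By mean brightness they stood at percentiles 20.9 and 19.6 of all probe sets. No 2 neighbouring lines in CCND1 were apart beyond the residual SDs of 0.42 and 0.49. From the highest line to the lowest the line means spanned 1.42 and 1.2 log2 units. The mean changes of CCND1, 0.18 and -0.16, had opposite signs and were not tested.

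CCND2, the D cyclin that is induced by MYC in many cell types, was measured by 1 probe set above the filter. Signals of 200953_s_at ran from 7.23 in CUTLL1 to 191 in ALL-SIL in DMSO (median 63.6), and from 16.9 to 159.7 in CompE in the same lines (median 47.3). CUTLL1 lay under the filter level of 32.5 in both arrays, as did HPB-ALL, so the span of the lines has no firm size. ALL-SIL stood above RPMI8402, the next line, by 0.82, more than the residual SD of 0.33. RPMI8402 and P12-ICHIKAWA did not differ beyond that spread, nor did the neighbours from KOPTK1 through PF382 and CCRF-CEM to MOLT3, whereas DND41, HPB-ALL and CUTLL1 formed the low end. The treatment moved CCND2 up in 5 lines and down in 5, from -0.45 in CCRF-CEM to 0.71 in RPMI8402. Its mean change was 0.06 ± 0.153 (SE, n = 10 pairs, limma adjusted p = 0.864), with a 95% interval from -0.27 to 0.38. The sign turned with median centring (-0.02), quantile normalization (-0.09) and without RPMI8402 (-0.02) or HPB-ALL (-0.01), so no direction is given for it. The other 2 probe sets of CCND2 had maxima of 24.2 and 13.9 in DMSO and were not tested.

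CCND3, which carries D-cyclin function in thymocytes, was bright in every line. In DMSO its signal ran from 1297 in CCRF-CEM to 4248 in DND41 (median 2963), and in CompE from 1278 in CCRF-CEM to 5046 in MOLT3 (median 3561). The groups overlapped. Ordered by the mean of both arrays, DND41, PF382 and MOLT3 led and did not differ beyond the residual SD of 0.19, while CCRF-CEM lay 0.65 below the next line. The change was 0.26 ± 0.0833 (limma adjusted p = 0.0782, 95% interval 0.09 to 0.44), and it was highest in RPMI8402 (0.66), KOPTK1 (0.62) and MOLT3 (0.56). CCRF-CEM (-0.02) and P12-ICHIKAWA (-0.14) were the 2 lines below 0. It passed the threshold without P12-ICHIKAWA (0.31, limma adjusted p = 0.0477) and in no other alternative. The change of CCND2 minus that of CCND3 was -0.21 (95% interval -0.58 to 0.17; exact sign-flip p = 0.238, and 0.238 adjusted over the 3 differences tested), below 0 in 5 of 10 lines, so a difference in response between the 2 cyclins was not shown.

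**Figure D2:**
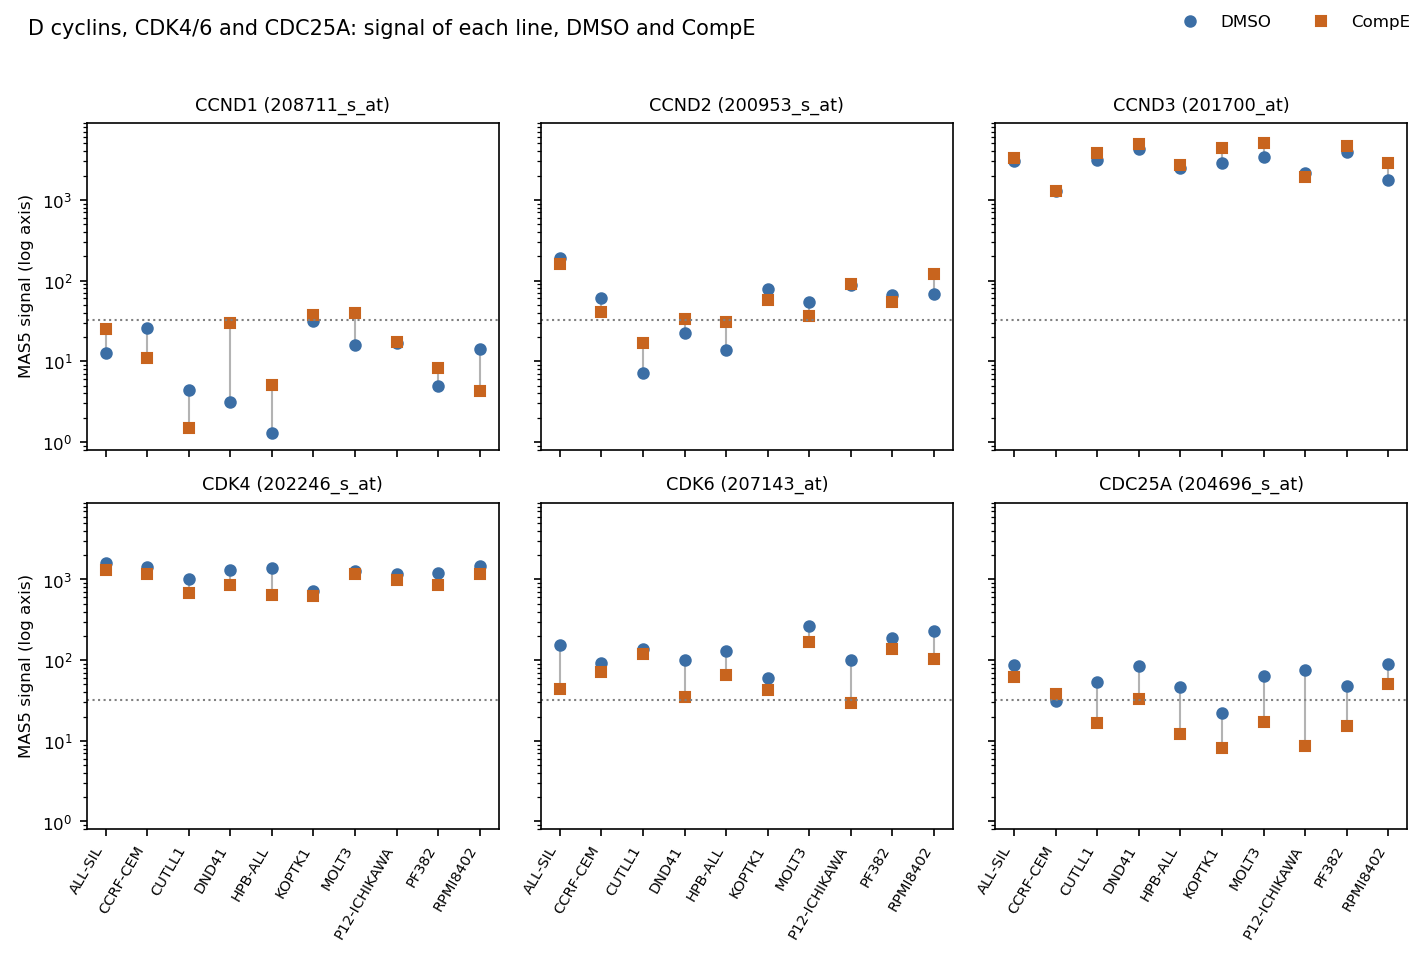
MAS5 signal on a log axis of the brightest probe sets of the D cyclins and of CDK4 and CDK6, and of the dimmer probe set of CDC25A, in 10 lines. Circles are DMSO, squares CompE, grey lines join the 2 arrays of a line, and the dotted line marks the filter at 32.5. CDK4 and CDK6 squares lie under their circles in all 10 lines, and CCND1 lies near or under the filter.

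CDK4, a partner kinase of the D cyclins, fell in every line. Its signal ran from 723 in KOPTK1 to 1587 in ALL-SIL in DMSO (median 1290.5) and from 621 in KOPTK1 to 1297 in ALL-SIL in CompE (median 914). ALL-SIL was thus the highest and KOPTK1 the lowest line in both groups, the groups overlapped, and of the 9 steps in the order of the lines only that from CUTLL1 to KOPTK1 (0.30) exceeded the residual SD of 0.20. The change was -0.42 ± 0.0912 (limma adjusted p = 0.0217, 95% interval -0.62 to -0.23). It was deepest in HPB-ALL, from 1382 to 642 (-1.09), followed by DND41 (-0.62), CUTLL1 (-0.58) and PF382 (-0.51). MOLT3 had the smallest change, from 1267 to 1179 (-0.10). Without HPB-ALL the change was -0.35 (adjusted p = 0.0538), and the call was also lost without DND41 (-0.40, adjusted p = 0.056) and without RPMI8402 (-0.44, adjusted p = 0.0527). With the ACTB ratio as a covariate it was -0.45 (limma adjusted p = 0.0444). With the 10th percentile of signal as a covariate it was -0.36 and lost its call (limma adjusted p = 0.262).

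The stretch of 250 bases before the RefSeq start of CDK4 (GRCh38.p14, chr12:57752311-57752560, minus strand) is shown because it holds 3 copies of the E-box CACGTG, the palindrome that MYC and its partner MAX bind, and MYC fell in the same arrays. The capitals mark the E-boxes, which begin 216, 196 and 101 bases before the start.
CDK4: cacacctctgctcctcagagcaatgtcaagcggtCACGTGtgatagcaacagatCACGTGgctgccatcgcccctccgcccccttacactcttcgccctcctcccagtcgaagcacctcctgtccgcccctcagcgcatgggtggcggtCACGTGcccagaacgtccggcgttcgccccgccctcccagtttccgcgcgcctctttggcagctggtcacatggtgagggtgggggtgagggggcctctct
Of 35116 RefSeq windows of the same length, 6.34% held at least 1 CACGTG and 0.0797% held 3 or more. Among the members, 8 had such a window, and CDK4 was the only one of the 8 with an E-box in it. CCND1 and CCND2 had no entry in the table. The match is a description of the letters, and no binding was measured here. Whether the fall of MYC had a part in that of CDK4 was not tested.

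CDK6, the kinase that serves beside CDK4 in haematopoietic cells, was measured by 1 probe set. In DMSO its signal ran from 60 in KOPTK1 to 264 in MOLT3 (median 135), and in CompE from 29.4 in P12-ICHIKAWA to 166 in MOLT3 (median 68.2). MOLT3 was the highest line in both groups, and it exceeded PF382, the next, by 0.36 against a residual SD of 0.33. CDK6 fell by 0.79 ± 0.146 (limma adjusted p = 0.0143, 95% interval of the change -1.10 to -0.48). The changes were spread widely: -1.52 in ALL-SIL, -1.35 in P12-ICHIKAWA, -1.19 in DND41 and -1.04 in RPMI8402, against -0.20 in CUTLL1 and -0.32 in CCRF-CEM. CDK6 kept its call in each of the 10 fits that left out 1 line (adjusted p from 0.00522 to 0.0428) and with the ACTB ratio as a covariate (-0.84, adjusted p = 0.028). It lost the call with the 10th percentile of signal as a covariate (-0.73, limma adjusted p = 0.195) and without the block of lines (limma adjusted p = 1). In the exact sign-flip test CDK6 had the smallest p possible, 0.00195. Adjusted, that was 0.0673, so this test could call no probe set and cannot decide on CDK6. At signals this low the size depends on the constant added before the logarithm: it was -0.93 with 1 and -0.54 with 64. The windows before both RefSeq starts of CDK6 held none of the motifs searched.

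The single line with the deepest change differed between the kinases, while DND41 was among the 3 deepest for both (-0.62 in CDK4 and -1.19 in CDK6). ALL-SIL, with the deepest change of CDK6, changed by -0.29 in CDK4, and HPB-ALL, with the deepest change of CDK4, changed by -0.85 in CDK6. The change of CDK4 minus that of CDK6 was 0.36 ± 0.176 (SE, n = 10, 95% interval -0.04 to 0.76, exact sign-flip p = 0.0723, adjusted 0.217 over 3 differences), above 0 in 7 of 10 lines. A difference between the kinases was therefore not shown, and the interval does not show that they respond alike. The size of the difference depends on the added constant: it was 0.50 with 1 and 0.13 with 64.

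SKP2, the substrate receptor of the ubiquitin ligase that removes p27, had 3 probe sets, of which 2 fell. The probe set 210567_s_at ran from 197 to 585 in DMSO (median 330.1) and from 85.2 to 397 in CompE (median 256), and was lower in all 10 lines. DND41 was highest in both groups and HPB-ALL lowest in CompE, and the groups overlapped. Its change was -0.49 ± 0.104 (limma adjusted p = 0.0217), deepest in HPB-ALL (-1.19) and least in PF382 (-0.19). The dim 203626_s_at, from 22.2 to 167 in DMSO (median 68.4) and from 5.92 to 108 in CompE (median 39.6), fell by 0.54 ± 0.137 (adjusted p = 0.0376) in 9 lines. The brightest, 203625_x_at, ran from 909 to 1859 (median 1489.9) and from 649 to 1805 (median 1193) and was not called (-0.20 ± 0.111, limma adjusted p = 0.291). It was higher in KOPTK1 (0.56) and P12-ICHIKAWA (0.38), the lines where 210567_s_at changed by -0.63 and -0.26. An annotation suffix of x marks probes that can match other transcripts. The 2 called probe sets carry the suffix s, and which transcripts any of the 3 match was not tested. The mean of the 3 probe sets changed by -0.41 (limma adjusted p = 0.0208).

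SKP2 calls depended on single lines and on whether the ACTB ratio entered the fit. The call of 210567_s_at was lost without DND41 (adjusted p = 0.0523), HPB-ALL (0.0542) and RPMI8402 (0.0582). That of 203626_s_at was kept only without KOPTK1 (limma adjusted p = 0.0329), P12-ICHIKAWA (0.0376) or PF382 (0.0402), and was lost without any 1 of the other 7 lines (0.0577 to 0.0988). With the ACTB ratio as a covariate the changes were -0.43 (adjusted p = 0.0676) and -0.45 (adjusted p = 0.142).

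The window before the SKP2 start (GRCh38.p14, chr5:36151861-36152110, plus strand) is shown because SKP2 is described as a NOTCH target and the window holds 2 copies of TGGGAA, the core letters bound by RBPJ, the DNA-binding partner of NOTCH. The copies lie on the opposite strand, so the capitals read TTCCCA, and they begin 232 and 66 bases before the start.
SKP2: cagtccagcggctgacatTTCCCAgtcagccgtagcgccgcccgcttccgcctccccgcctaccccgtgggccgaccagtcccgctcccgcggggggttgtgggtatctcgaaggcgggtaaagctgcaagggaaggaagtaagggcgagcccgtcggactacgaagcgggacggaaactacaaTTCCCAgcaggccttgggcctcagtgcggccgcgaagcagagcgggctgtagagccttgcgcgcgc
These 6 letters are common: on either strand, 20.8% of all RefSeq windows held at least 1 copy and 2.9% held 2 or more. Both windows of RBL2 held 1 copy each, and RBL2 was not called.

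CDC25A, the phosphatase that activates CDK2 at the G1 to S transition, fell by the dimmer of its 2 probe sets. Signals of 204696_s_at ran from 22.0 in KOPTK1 to 89.7 in RPMI8402 in DMSO (median 58.3) and from 8.07 in KOPTK1 to 61.3 in ALL-SIL in CompE (median 16.9). Most CompE values lay under the filter level of 32.5, where MAS5 is noisy. The change was -0.90 ± 0.176 (limma adjusted p = 0.0173, 95% interval -1.27 to -0.52), lower in 9 lines, deepest in P12-ICHIKAWA, from 75.0 to 8.52 (-1.89), and 0.20 in CCRF-CEM. It was -1.36 with an added constant of 1 and -0.46 with 64, and its call was lost without HPB-ALL (-0.87, adjusted p = 0.0508). The ACTB covariate left it at -0.86 (limma adjusted p = 0.0484). With the 10th percentile of signal as a covariate it was -0.70 and lost its call (limma adjusted p = 0.227).

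The brighter CDC25A probe set, 204695_at, gave another picture. It ran from 225 to 465 in DMSO (median 363) and from 152 to 433 in CompE (median 335), and its change of -0.27 ± 0.13 was not called (limma adjusted p = 0.229). CDC25A was lower by this probe set in 6 lines, deepest in DND41, from 465 to 221 (-1.02), and CCRF-CEM, from 345 to 202 (-0.73), the line where 204696_s_at was higher. RPMI8402 (0.39), KOPTK1 (0.16), MOLT3 (0.08) and PF382 (0.03) were above 0. With the mean of both probe sets the change was -0.58 (limma adjusted p = 0.0127).

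The CDC25A window (GRCh38.p14, chr3:48188418-48188667, minus strand) is shown for its E2F motif, since CDC25A is a known E2F target and E2F is what the pocket proteins hold. The letters searched were TTTGGCGC, TTTCGCGC and TTTCCCGC on both strands, and the capitals mark TTTGGCGC, which begins 44 bases before the start.
CDC25A: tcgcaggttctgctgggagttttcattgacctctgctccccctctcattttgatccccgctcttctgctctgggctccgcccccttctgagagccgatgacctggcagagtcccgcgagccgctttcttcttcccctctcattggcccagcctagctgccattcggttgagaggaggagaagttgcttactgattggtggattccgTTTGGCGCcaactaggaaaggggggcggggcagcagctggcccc
Of all windows, 2.32% held at least 1 of these motifs and 0.0826% held 2 or more. RBL1, itself a pocket protein, was the other member with a match, with 2 motifs that begin 26 and 16 bases before its start, and RBL1 was not called.

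RB1, the retinoblastoma protein, showed a sharp difference between lines, and the 2 probe sets disagreed about it. By 203132_at ALL-SIL stood at 11.3 in DMSO and 1.34 in CompE, while the other 9 lines ran from 774 to 1383 in DMSO and from 649 to 1288 in CompE. Both ALL-SIL values lie under the filter level of 32.5, so no size of the step to the next line is given. Among the other lines CCRF-CEM, KOPTK1, P12-ICHIKAWA, MOLT3 and PF382 did not differ beyond the residual SD of 0.19. By 211540_s_at, however, ALL-SIL was the highest line, at 346 and 252, while the others ran from 78.3 to 263 in DMSO and from 53.3 to 149.7 in CompE. These are 2 arrays of 1 line and were not tested, and the files do not give the positions of the probes in the transcript.

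**Figure D3:**
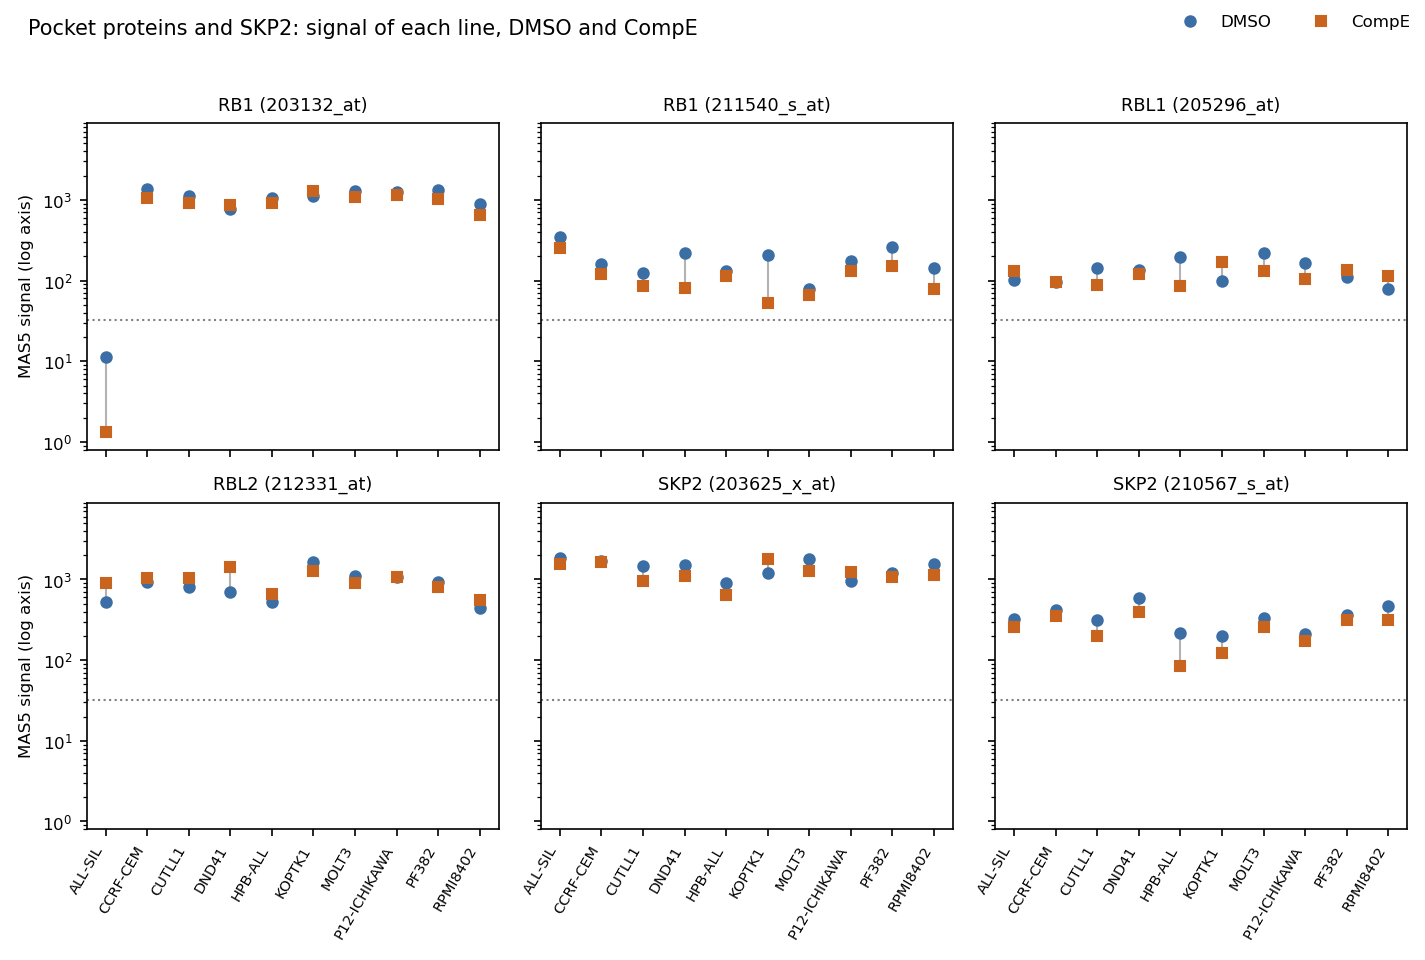
MAS5 signal on a log axis of probe sets of the pocket proteins RB1, RBL1 and RBL2 and of SKP2 in 10 lines. Circles are DMSO, squares CompE, and the dotted line marks the filter at 32.5. ALL-SIL lies at 11.3 and 1.34 by 203132_at of RB1 and is the highest line by 211540_s_at.

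Under CompE, 211540_s_at of RB1 had medians of 168 in DMSO and 100.2 in CompE and was lower in each of the 10 lines (-0.65 ± 0.145, limma adjusted p = 0.0248). The change was deepest in KOPTK1, from 206 to 53.3 (-1.68), and DND41, from 222 to 81.2 (-1.29), and least in HPB-ALL (-0.18). By 203132_at the same 2 lines were higher, at 0.20 and 0.16, and the mean change of -0.24 ± 0.0907 was not called (limma adjusted p = 0.125). The deepest change in this mean was that of ALL-SIL (-0.65), from 2 signals under the filter level. Without ALL-SIL the mean change was -0.20, and with an added constant of 1 it was -0.42 (limma adjusted p = 0.213 and 0.205). Without KOPTK1 it was called (-0.29, adjusted p = 0.0333), and also when the ACTB ratio entered the fit (-0.40, adjusted p = 0.0304). The covariate moved the other probe set to -0.40 (limma adjusted p = 0.125) and ended its call, as did leaving out DND41 (-0.58, adjusted p = 0.0623) or RPMI8402 (-0.64, adjusted p = 0.0624). The ACTB ratio went from 3.32 to 9.76 in KOPTK1 and from 1.02 to 1.49 in DND41, and its part in the disagreement of the probe sets was not tested. The mean of both probe sets changed by -0.45 (limma adjusted p = 0.00874).

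RBL1 (p107) and RBL2 (p130), the relatives of RB1 that act in cycling and in resting cells, did not pass the test. RBL1 ran from 77.7 to 217 in DMSO (median 122) and from 84.6 to 171 in CompE (median 116), with no 2 neighbouring lines apart beyond the residual SD of 0.41. Its change was -0.13 ± 0.165 (limma adjusted p = 0.681, 95% interval -0.48 to 0.22), from -1.07 in HPB-ALL to 0.72 in KOPTK1. RBL2 by 212331_at ran from 442 in RPMI8402 to 1642 in KOPTK1 (median 863) and in CompE from 552 in RPMI8402 to 1421 in DND41 (median 973). Its change was 0.21 ± 0.123 (limma adjusted p = 0.306, 95% interval -0.05 to 0.47), higher in 7 lines. DND41 went from 695 to 1421 (1.02) by this probe set and from 485 to 225 (-1.06) by the other, 212332_at. The mean change of 212332_at was 0.06 ± 0.144 (limma adjusted p = 0.83), but -0.01 with median centring and -0.01 without HPB-ALL. The change of RBL1 minus that of RBL2 was -0.34 (95% interval -0.89 to 0.21, exact sign-flip p = 0.191, adjusted 0.238 over 3 differences), below 0 in 7 of 10 lines.

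The rest of the G1 to S pathway, read by the brightest probe set of each gene, had 1 call in 68 genes tested. The members read by the same rule had 2 calls in 9 genes tested, CDK4 and CDK6. Their other calls came from dimmer probe sets, so the counts given above for members are not set against these. Over all 7695 genes read this way, 2.39% were called lower and 2.78% higher, and 41.1% had a change below 0. The 1 call among the 68 genes was CDKN2D (p19), an inhibitor of CDK4 and CDK6, which rose by 0.65 ± 0.143 (limma adjusted p = 0.023) in 9 lines. It was the 1 of 5 tested CDK inhibitors to pass. CDKN1B (p27), whose protein SKP2 marks for removal, stood at 0.19 (limma adjusted p = 0.15) and CDKN1C at 0.21. CDKN2A stood at 0.22, higher in 5 lines and lower in 5, and the remaining tested inhibitor at -0.07. None of 8 genes of the E and A cyclins with CDK2 was called, with PKMYT1 at -0.29 and CDC25B at 0.18.

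Of 20 tested E2F target genes of S phase, 19 had a change below 0 and 0 were called. Their median was -0.29, against 0.04 over all genes, with GINS2 at -0.56 (limma adjusted p = 0.0658), CDC6, which loads the replicative helicase, at -0.47 (adjusted p = 0.0677) and MCM4 at -0.40 (adjusted p = 0.0699). E2F and DP factors themselves had 0 calls of 9, 5 of them below 0. E2F5, a partner of RBL2, was lowest at -0.65 (limma adjusted p = 0.0566), and TFDP2 stood at 0.18. The list of the SCF ubiquitin ligase, which SKP2 joins, had 0 calls of 8, with RBX1 at -0.29 (limma adjusted p = 0.0603), CKS1B, the cofactor needed to bind p27, at -0.22, and FBXW7, another F-box receptor that takes the place of SKP2 and binds cyclin E and NOTCH, at 0.39. No call was made among 5 genes of the CDK-activating kinase and chaperones, with MNAT1 at -0.25, lower in all 10 lines (limma adjusted p = 0.108). The 4 genes of the MuvB and DREAM complex had 0 calls, with DYRK1A at 0.27 and MYBL2 at -0.40. So had the 9 regulators of D cyclin and CDC25A turnover, with CHEK1 at -0.38 and BTRC at 0.31, higher in all 10 lines (limma adjusted p = 0.15).

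**Figure D4:**
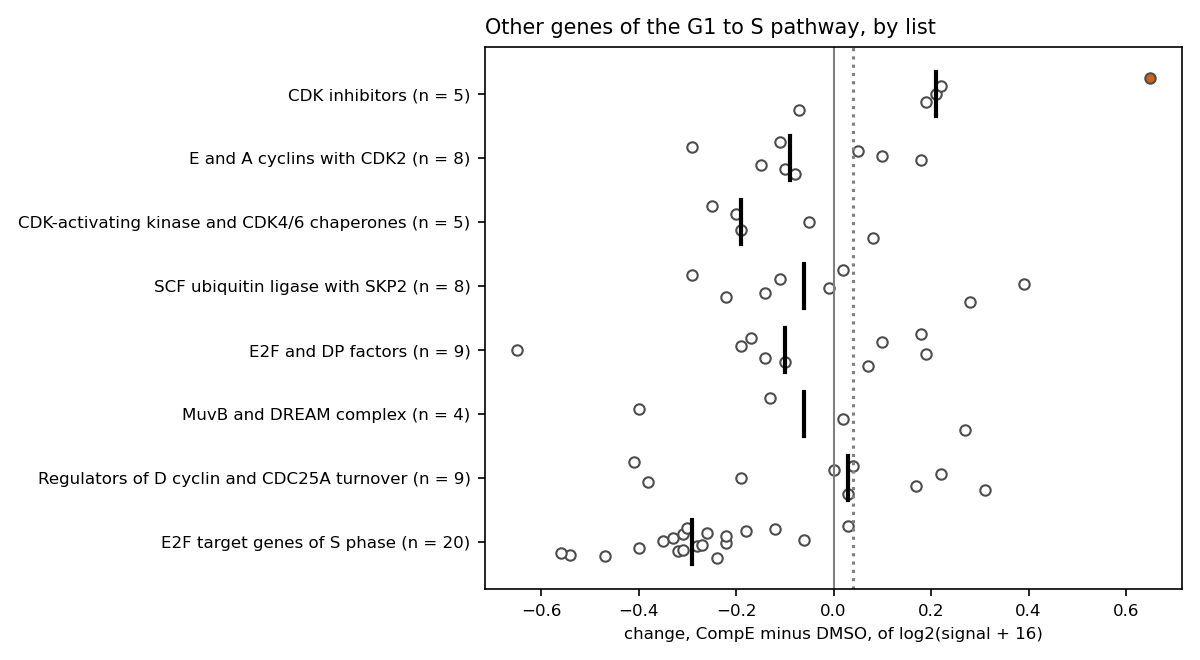
Change under CompE, on the log2(signal + 16) scale, of tested genes in 8 lists of the G1 to S pathway, each by its brightest probe set. The filled point is CDKN2D, the 1 gene called, black bars are list medians and the dotted line is the median of all genes (0.04). Of 20 E2F target genes, 19 lie below 0.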

How the data were processed

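The authors deposited linear intensities, which the submitters' processing notes credit to MAS5; its version and settings are not given in these sources. Every array had a mean of 250 once 2% of values at either end were trimmed, and this scaling was kept. MAS5 values are noisy near 0, and scaling hides changes in total RNA per cell. The table held 22277 probe sets, 62 of them controls. The annotation gave 1 gene for 19070, several for 1043 and did not list 2164. Changes of log2(signal + 16) were fitted for probe sets above the 40th percentile of mean log2 signal with limma 3.58.1 (R 4.3.3), a fixed block for the cell line, a trend on intensity and Benjamini-Hochberg adjustment over 13329 probe sets at 0.05. The prior added 7.11 degrees of freedom to 9 residual ones. The code was tested on simulated data.

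The labels pair the arrays by line, and for 10 of 10 CompE arrays the closest DMSO array by correlation was that of the same line. No label says that cultures were separate, so p-values reflect only how these 10 lines vary, and the number of arrays limits the precision. Differences between relatives were tested by exact sign-flip permutation over lines (1024 patterns, smallest p 0.00195). The residual SD is that of the additive fit of line and treatment. Genes named are the members, up to 4 genes of each pathway list with the smallest adjusted p, MYC, HES1, and the 3 genes most like a member whose line means span at least 2 log2 units. Members and lists were chosen with earlier results of these data known. Levels of different probe sets are not compared. Promoter windows are from RefSeq, GRCh38.p14.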

Additional observations from a re-analysis of the deposited data

Results flagged for a closer look

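In each group of 10 arrays, and over the 10 changes, a value was picked out where its distance to the nearest other value took up more of the whole range than Dixon's 95% criterion allows, on the log2(signal + 16) scale. Over 54 such sets, 5 met it, and chance alone picks out about 1 in 20.

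RB1 by 203132_at stood apart in ALL-SIL in both groups, at 11.3 in DMSO (others 774 to 1383) and 1.34 in CompE (others 649 to 1288). In HPB-ALL the change of CDK4 was -1.09, with the others from -0.62 to -0.10, and the change of SKP2 by 210567_s_at was -1.19, with the others from -0.63 to -0.19. CCND2 by the dim 200951_s_at was at 24.1 in PF382 in CompE, with the others from 1.03 to 10.4, all under the filter on signal.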

How the results depend on the processing

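Member calls numbered 5 or 6 with another added constant, no filter, median centring, quantile normalization, a random block of lines or no intensity trend. With probe sets averaged per gene, 5 of 8 averages were called. With the ACTB ratio as a covariate 4 member calls were made. The ratio rose by far the most in KOPTK1, from 3.32 to 9.76, so this fit leans on 1 line. It cannot separate RNA quality from other traits of that line. CDK4, CDK6 and CDC25A by 204696_s_at kept theirs, and RB1 by 203132_at was newly called. RB1 by 211540_s_at and SKP2 by 210567_s_at and 203626_s_at lost theirs. Member calls were 2 with 1 probe set per gene, which tests 9 members, and 3 without the 3 lines of another medium label. No member was called with the 10th percentile of signal as a covariate, by exact sign-flip tests, or without the replicate block of lines (limma, or exact permutation; 8, 8 and 4 members at an unadjusted p under 0.05). With that covariate the changes were -0.36 in CDK4, -0.73 in CDK6, -0.60 in RB1 by 211540_s_at, -0.45 and -0.50 in SKP2 by 210567_s_at and 203626_s_at, and -0.70 in CDC25A by 204696_s_at. Over all probe sets these 3 fits called 0 (1533, 2940 and 590 at an unadjusted p under 0.05). For the exact sign-flip test the smallest p possible, 0.00195, adjusted to 0.0673, so it could call no probe set. The count over all probe sets was 380 with no filter, 328 without the intensity trend and 186 without the 3 lines. With 1 line left out, the member calls ranged from 2 to 7 and all calls from 96 to 1465. CCND2 reversed to -0.02 with the 10th percentile as a covariate, -0.02 with median centring and -0.09 with quantile normalization, and ranged from -0.02 to 0.11 with 1 line left out (below 0 without RPMI8402 or HPB-ALL). RBL2 by 212332_at reversed to -0.01 with median centring and ranged from -0.01 (without HPB-ALL) to 0.19. The cause was not tested. The 3 differences between relatives kept their sign and did not pass the threshold under the alternatives run for them: the added constants, both normalizations, averaged probe sets, and leaving out 1 line or the 3 lines. Of 325 values of single members under alternatives, 270 kept their sign and their side of the threshold, 42 lost and 6 gained a call, and 7 reversed. The paired fit is the one reported; signals near 32.5 and below, as for CDC25A by 204696_s_at, limit the sizes given.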

Other observations

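The line means of CCND2 and of RB1 by 203132_at spanned more than 2 log2 units, a size that depends on the added constant because their lowest lines lie under the filter. Genes with the most similar levels over the 10 lines were sought for both. For CCND2 they were PGGHG (r = 0.977), EEIG1 (r = 0.912) and F2R (r = 0.888), and without ALL-SIL, the line farthest from the median, r was 0.964, 0.851 and 0.838 over 9 lines. For RB1 by 203132_at they were SOCS5 (r = 0.967), TMEM168 (r = 0.965) and NPEPL1 (r = 0.964), and without ALL-SIL r was 0.713, 0.717 and 0.386, so those similarities rest largely on 1 line. These are descriptions, chosen as the highest of 7695 genes, and the points share the array scaling.

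Probe sets of 1 gene differed in sign in several lines. RB1 changed by -1.68 and 0.20 in KOPTK1 and by -1.29 and 0.16 in DND41, SKP2 by -0.63 and 0.56 in KOPTK1, and RBL2 by 1.02 and -1.06 in DND41. CDC25A changed by 0.39 and -0.65 in RPMI8402, and the dim, untested probe sets of CCND2 by 1.17 and -0.66 in PF382. The 10th percentile of signal went from 3.67 to 8.35 in DND41, 4.97 to 8.93 in PF382, 3.53 to 4.46 in RPMI8402 and 5.67 to 5.92 in KOPTK1, and its part in these differences was not tested.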
